A study of Mus musculus with 21 samples.

Results

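The regions described here are short, CpG-rich, weakly methylated stretches of the mouse genome that had the fewest reads per CpG among their kind in nucleosome-associated sperm DNA. The series compares histones, histone variants, histone marks, RNA and DNA methylation in mouse sperm and round spermatids, the haploid cells that precede sperm, and its title relates the retention of nucleosomes to the density and methylation of CpGs. Of its 21 samples, 1 was analysed here and 20 were not. That library holds DNA from C57BL/6 sperm collected by swim-up, a step that selects motile cells. Chromatin was digested with micrococcal nuclease (MNase), which removes DNA between nucleosomes, and the mononucleosomal DNA was treated with bisulfite, which leaves methylated cytosine and converts unmethylated cytosine. The labels give no genotype, treatment or age that would divide this library into groups. With 1 library and no replicate, no difference below has a test, and each is set beside the spread between regions.

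A region was a run of at least 30 CpGs on an autosome, each with 5 or more reads, a running methylation level over 3 CpGs of under 50% and gaps of at most 500 bp. Regions of 1000 to under 3000 bp with at least 30 listed CpGs of up to 19 reads numbered 7022. Of these, 771 (11.0%) had a mean of 4.3 reads or less over their listed CpGs of up to 19 reads and are called the low-coverage regions. Methylation and reads inside the regions therefore chose them and are given as a description only. Measures the choice did not use directly are the methylation of CpGs of 1 to 4 reads, the flanks, the surrounding megabase and the genes at the regions. The first of these is not independent of the choice, since such CpGs can share reads with those used. The library held 60995624 CpG reads over 15544856 listed CpGs, with a median of 3 reads, and a CpG without reads is not listed.

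CpG islands are stretches where CpGs have escaped the loss that methylated CpGs undergo over evolution, and most of them lie at promoters and are unmethylated in the germ line. When spermatids mature, protamines take the place of most histones and pack the DNA more tightly. The nucleosomes that stay are known to lie often at CpG-rich, unmethylated promoters, so reads of MNase-resistant DNA at such a region report on the wrapped DNA recovered there. Fewer sperm with a nucleosome at a site and less DNA recovered from each cannot be told apart in such a library.

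Promoters were placed in the regions by the spacing of their CpGs, and 482 of the 771 low-coverage regions (62.5%) held at least 1 matched promoter, as did 62.2% of all 7022 regions. The upstream sequences of 6 are printed to show what reads on single CpGs look like at both ends of the coverage scale. They are the 250 bases before the RefSeq transcription start on GRCm38.p6, written 5′ to 3′ on the strand of the gene, and a CpG in capitals had 5 or more reads in sperm. The first 4 belong to the low-coverage regions with the lowest means among those with exactly 1 matched promoter. Arl8a belongs to the region nearest the median of all 7022 regions and Tmtc1 to the region at the median of those above 7 reads. Region means leave out CpGs above 19 reads. The Arl8a mean of 5.39 thus rests on 123 CpGs and leaves out CpGs of up to 30 reads near the start.
Nanos1 (chr19:60755737-60755986, plus strand): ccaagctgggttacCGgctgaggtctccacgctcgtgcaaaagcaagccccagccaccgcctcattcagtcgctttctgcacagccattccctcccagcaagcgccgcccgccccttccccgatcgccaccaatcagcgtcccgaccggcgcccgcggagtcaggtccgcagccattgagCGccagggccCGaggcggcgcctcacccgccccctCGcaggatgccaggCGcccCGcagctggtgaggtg
Pkn2 (chr3:142882005-142882254, minus strand): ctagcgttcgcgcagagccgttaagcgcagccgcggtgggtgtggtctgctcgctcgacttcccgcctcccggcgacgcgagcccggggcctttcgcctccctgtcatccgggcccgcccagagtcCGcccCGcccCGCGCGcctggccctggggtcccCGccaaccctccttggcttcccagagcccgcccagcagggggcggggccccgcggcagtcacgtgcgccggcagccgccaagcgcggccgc
Nampt (chr12:32820085-32820334, plus strand): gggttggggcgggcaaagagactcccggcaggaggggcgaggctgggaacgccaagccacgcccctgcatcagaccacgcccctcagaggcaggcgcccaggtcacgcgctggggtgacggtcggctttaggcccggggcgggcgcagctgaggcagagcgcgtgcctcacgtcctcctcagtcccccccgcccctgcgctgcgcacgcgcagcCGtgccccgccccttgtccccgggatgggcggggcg
Phyhipl (chr10:70599292-70599541, minus strand): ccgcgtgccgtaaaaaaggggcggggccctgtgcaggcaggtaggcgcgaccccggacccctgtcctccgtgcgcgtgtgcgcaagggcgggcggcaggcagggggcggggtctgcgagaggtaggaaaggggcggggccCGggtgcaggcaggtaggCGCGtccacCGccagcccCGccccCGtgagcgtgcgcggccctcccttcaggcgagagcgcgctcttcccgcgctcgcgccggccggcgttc
Arl8a (chr1:135146584-135146833, plus strand): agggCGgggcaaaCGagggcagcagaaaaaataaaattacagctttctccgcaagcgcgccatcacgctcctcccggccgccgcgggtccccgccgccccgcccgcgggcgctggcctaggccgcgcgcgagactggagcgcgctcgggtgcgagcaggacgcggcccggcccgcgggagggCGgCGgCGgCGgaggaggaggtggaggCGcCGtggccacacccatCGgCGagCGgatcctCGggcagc
Tmtc1 (chr6:148444353-148444602, minus strand): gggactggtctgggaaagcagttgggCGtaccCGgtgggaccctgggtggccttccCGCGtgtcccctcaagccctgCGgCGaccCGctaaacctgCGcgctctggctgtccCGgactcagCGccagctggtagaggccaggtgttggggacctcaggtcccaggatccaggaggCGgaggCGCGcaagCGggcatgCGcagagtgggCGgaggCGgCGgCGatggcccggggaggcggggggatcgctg

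Upstream of Nanos1, a gene for an RNA-binding translational repressor, 6 of the 25 CpGs had 5 or more reads, 13 had 1 to 4 and 6 were not listed. Upstream of Pkn2, which encodes a serine/threonine protein kinase, 6 of 35 CpGs had 5 or more reads and 26 had 1 to 4. Upstream of Nampt, the rate-limiting enzyme of NAD salvage, 1 of 27 CpGs had 5 or more reads and 25 had 1 to 4. Most CpGs of these 3 promoters are thus in lower case. Upstream of Phyhipl, 6 of 35 CpGs had 5 or more reads and 27 had 1 to 4. In the Arl8a sequence, whose gene encodes a lysosomal small GTPase, 12 of 39 CpGs had 5 or more reads and 25 had 1 to 4. Most CpGs of Arl8a are thus in lower case too. In the Tmtc1 sequence, whose gene encodes a protein mannosyltransferase of the endoplasmic reticulum, 19 of 23 CpGs had 5 or more reads. The other 4 had 1 to 4 reads. Reads per CpG of the sequence, CpGs without reads included, were 2.72, 2.97, 2.48 and 3.03 in the order of the 4 low-coverage promoters, 4.03 at Arl8a and 6.22 at Tmtc1. The G+C content of the 4 low-coverage sequences was 70.4%, 77.6%, 75.6% and 76.8%, against 75.2% at Arl8a and 72% at Tmtc1.

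**Figure D1:**
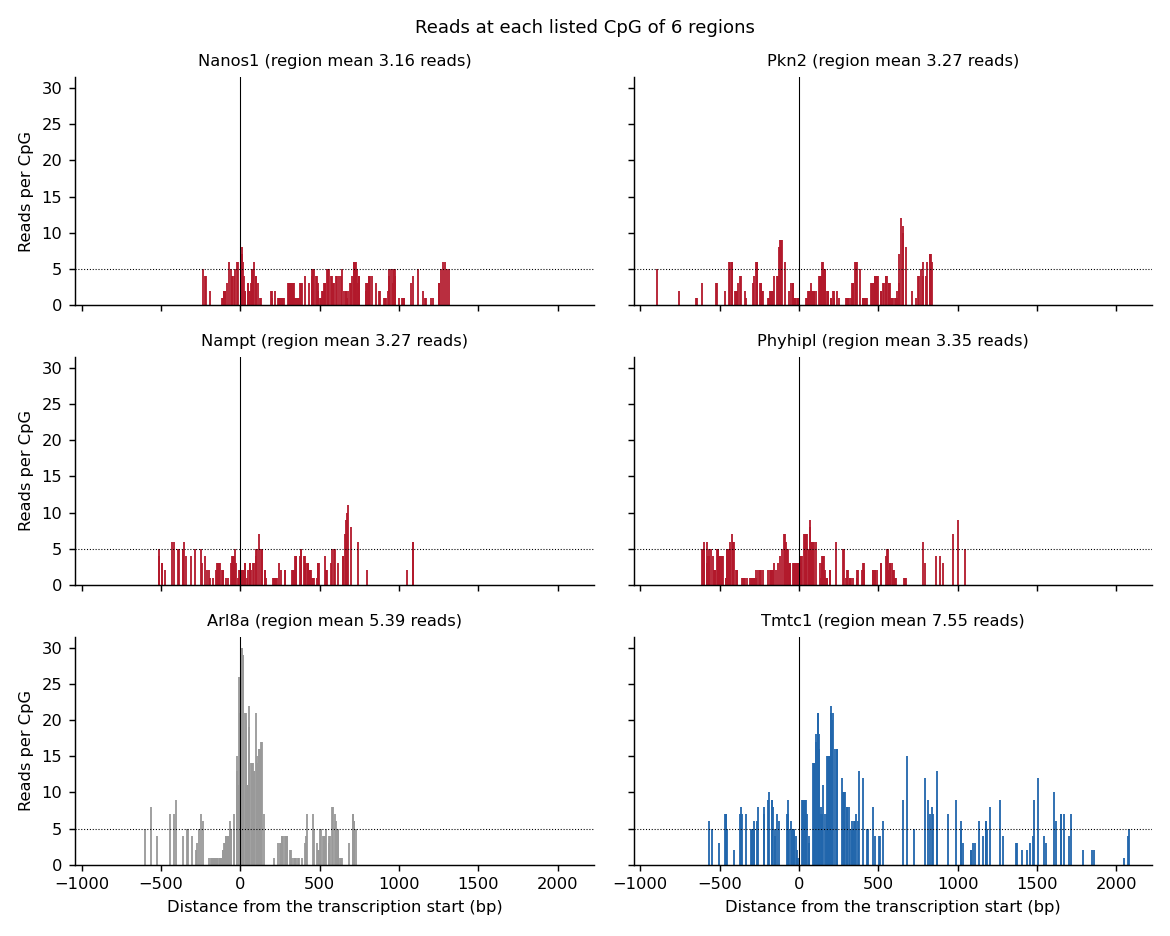
Reads at each listed CpG (bars) of the same 6 regions by distance from the matched transcription start in bp, with a dotted line at 5 reads. CpGs above 19 reads are drawn but are left out of the region means. Most bars of the 4 low-coverage regions lie at or below 5 reads, with short runs above it that reach 8 reads at Nanos1, 12 at Pkn2, 11 at Nampt and 9 at Phyhipl, whereas Arl8a has a block reaching 30 reads at its start and Tmtc1 one reaching 22 reads downstream of it.

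The low-coverage regions form the lower edge of a broad distribution, with no gap that sets them off. Their means ran from 3.05 to 4.3 reads with a median of 4.05, and the median of all 7022 regions was 5.39. Of the 771 regions, 34 had a mean under 3.5, 287 had 3.5 to under 4 and 450 had 4 to 4.3. Just inside the limit lay the region with the divergent genes Pign and Relch (chr1:107559490-107561181, 4.3 reads), one with no matched gene (chr15:76486626-76487755, 4.3) and that of Elovl4 (chr9:83698026-83700331, 4.299). Just outside it lay a region without a matched gene (chr11:117828989-117830363, 4.301) and those of Gch1 (chr14:47807594-47809341, 4.301) and Fbxw7 (chr3:84617982-84619618, 4.302). Regions and their coordinates are on mm9, as deposited, and no exon or intron was assigned to them.

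**Figure D2:**
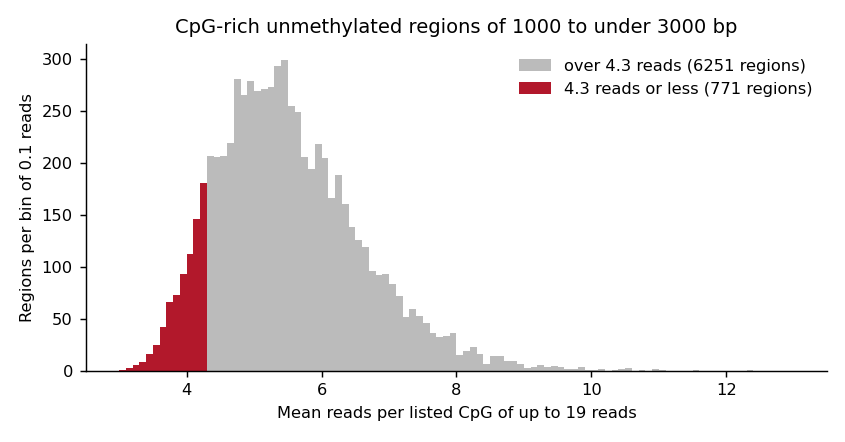
Number of regions (y axis) by mean reads per listed CpG of up to 19 reads (x axis, bins of 0.1 reads). The 771 low-coverage regions (red) continue into the 6251 other regions (grey) with no gap at the limit of 4.3 reads.

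The lowest mean belonged to a region with no matched gene at chr10:126625334-126627065, where 104 listed CpGs had a mean of 3.05 reads (SD over CpGs 1.87). Another without a matched gene, at chr8:34495200-34496709, had 3.14 reads (SD 1.94) over 125 CpGs. No 200-bp window of it with at least 8 CpGs, the only windows measured here and below, exceeded 3.61 reads. The Nanos1 region (chr19:60831654-60833201) was low along its whole length of 1548 bp: its 166 CpGs had a mean of 3.16 reads (SD 1.65), and its 200-bp windows ran from 1.83 to 4.12. The region of Shf, which encodes an SH2-domain adaptor (chr2:122193844-122195576), had 3.19 reads (SD 2.18) over 108 CpGs. A region at chr11:80290033-80291550 was uneven instead, with a mean of 3.23 reads (SD 2.37) and windows from 1 to 6.32 reads. Next came chr11:69181543-69182631 with 3.24 reads (SD 2.25), the Pkn2 region (chr3:142544131-142545860) with 3.27 (SD 2.27) over 161 CpGs and the Nampt region (chr12:33504686-33506288) with 3.27 (SD 1.89) over 128 CpGs.

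Together the low-coverage regions covered 1.34 Mb and 90881 listed CpGs. Their length had a median of 1683 bp (quartiles 1386.5 to 2031.5), against 1594 bp in the other regions. CpGs of 1 or 2 reads made up 31.8% of their CpGs and 17.5% of those in the other regions, and CpGs of 10 or more reads made up 2.94% and 13.8%. A CpG above 19 reads occurred in 31 of the 771 regions (4.02%), 293 CpGs in all, and in 13.9% of all 7022 regions. Without the limit of 19 reads, 743 of the 771 regions still had a mean of 4.3 or less.

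Within a low-coverage region reads were still unequal. Among 200-bp windows of at least 8 CpGs, the one with the fewest reads had a median of 2.35 reads per CpG and the one with the most 5.65. This covers the 769 regions with at least 3 such windows. In 495 of these (64.4%) the best window reached the median of all regions, 5.39 reads, as it did in 97.7% of the other regions. This sets the highest window of a region against means of whole regions, and the choice by reads lowers the first share. The best window divided by the lowest had a median of 2.46 (quartiles 1.93 to 3.05) in the low-coverage regions. In the other regions it was 2.30 (1.82 to 2.98). With the length divided into 10 equal bins, the outer bins had means of 4.48 and 4.39 reads and the 8 inner bins 3.8 to 3.99. The outermost CpG on each side of a region has 5 or more reads by construction, which raises the outer bins.

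CpGs of 1 to 4 reads take no part in calling regions, so the choice did not use their methylation directly. They lie among CpGs called low and can share reads with them, so a low level there is partly given by the choice. The low-coverage regions were weakly methylated there too. Their median level was 2.65% (quartiles 1.53 to 4.55), against 3.21% (1.56 to 5.96) in the other regions. In bands of over 4.3 to 5, over 5 to 6, over 6 to 7 and over 7 reads the medians were 2.8%, 3.1%, 3.5% and 4.79%. The median was thus lower in each band of lower coverage, by less than the spread between regions. Such CpGs are not the same part of a region in each band. Their median number per region was 71 in the lowest band and 20 above 7 reads. Over all CpGs of up to 19 reads the median levels of the 5 bands were 2.91%, 2.98%, 3.02%, 3.09% and 3.59%. At 0 to 50 bp after the start in regions with 1 matched promoter, the pooled level was 1.79% in the lowest band and 1.80% in the highest. The part of position was not tested. Pooled over 143648 reads, the level was 3.32% (95% Wilson interval 3.23 to 3.42, counting error only), against 4.04% (3.996 to 4.09) in the other regions. With CpGs of 1 or 2 reads alone the medians were 2.63% and 2.56%, so the order of the medians turned there, while the pooled level at CpGs of 1 read was 3.57% against 4.91%. In 745 of the 771 regions the level at CpGs of 1 to 4 reads was under 10%, and in 6 it was 20% or more.

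Methylation in the low-coverage regions was low at CpGs of every depth. It was 3.57% (3.26 to 3.901) at CpGs of 1 read, 3.51% at 2, 3.296% at 3, 3.17% at 4, 3.31% at 5 to 9 and 2.802% (2.61 to 3.01) at 10 to 19 reads. In the other regions it ran from 4.91% at 1 read to 3.25% at 10 to 19 reads. CpGs of 5 or more reads were used to call the regions of both sets, so a low level at those depths is given by the choice.

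Single regions departed from this. The highest level at CpGs of 1 to 4 reads was 32.7% (Wilson interval 25.9 to 40.3, 159 reads), at chr7:25318312-25319359. Next were chr2:174110181-174112475 with 28.9% (23.3 to 35.2) and chr11:96205739-96207494 with 26.1% (18.9 to 35.0), none of them with a matched gene. These 3 levels lie above the median of 2.65%, but the regions were picked as the highest of all low-coverage regions. The intervals count each read at each CpG separately although 1 molecule can cover several CpGs. They are therefore too narrow, and no test was made. At the other end, no read was methylated at such CpGs in the region of Pou2f1, an octamer-binding transcription factor (chr1:167931874-167933559, 0 of 202 reads, upper bound 1.87%). The same held for the region of Hey2, a Notch-induced repressor (chr10:30562209-30563213, 0 of 148 reads, upper bound 2.53%), and that of Anapc16 and Ascc1 (chr10:59464898-59466340, 0 of 122 reads, upper bound 3.05%).

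The flanks, 500 to 3000 bp beyond the edges and outside other weakly methylated runs, showed slightly fewer reads as well. Mean reads per listed flank CpG had a median of 2.97 (quartiles 2.63 to 3.305) beside the low-coverage regions and 3.09 (2.75 to 3.47) beside the others. Over the 5 bands of rising coverage the medians were 2.97, 3.03, 3.08, 3.14 and 3.24 reads. The whole rise is smaller than the SD between the flanks of the low-coverage regions, 0.511 reads. Flanks were methylated, with a median level of 81.6% (70.8 to 88.8) against 83.9% (74.0 to 89.9).

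The surrounding megabase did not show the same order. Mean reads outside weakly methylated runs within 500 kb on each side had a median of 3.14 around the low-coverage regions and 3.13 around the others, a difference that changed sign under 3 other settings. Against its own megabase, the flank had the lower mean in 476 of 771 cases (61.7%), in 51.4% of the other regions and in 40.3% of those above 7 reads.

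Single flanks differed far more than the bands, as shown by those with at least 20 listed CpGs. The lowest flank means were 1.67 reads at chr8:111227548-111229185, 1.79 beside the region of the tumour suppressor Cdkn2a and its neighbour Gm12610 (chr4:88940346-88941924) and 1.9 beside that of Plaa, a ubiquitin-binding protein (chr4:94269386-94270967). The first 2 of these regions also hold 17 and 16 CpGs above 19 reads, which their means leave out. With these CpGs counted, neither region would stay at 4.3 reads or less. The Cdkn2a promoter itself was well covered, with 541 reads over 45 CpGs, or 12.02 per CpG of the sequence. The median was 3.48 at low-coverage promoters and 7.13 in the band above 7 reads. The Gm12610 promoter in the same region had 3.97. The highest were 4.93 at chr18:31793740-31795588, 4.91 beside Ubap2l and 4933434E20Rik (chr3:89856129-89857305) and 4.89 beside Trp53inp2, an autophagy factor (chr2:155206905-155208356). In the last region one 200-bp window reached 11.1 reads although the region's mean was 4.17.

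**Figure D3:**
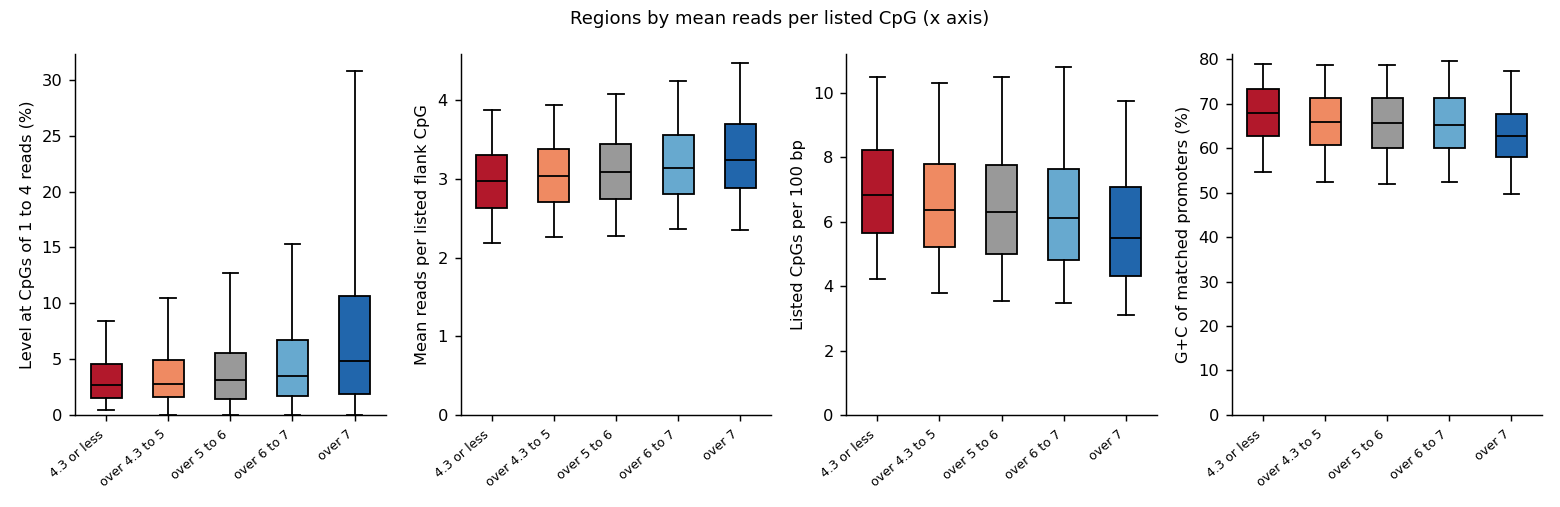
Boxes (quartiles and median, whiskers at the 5th and 95th percentiles over regions or, at the right, promoters) by band of mean reads. From 4.3 reads or less to over 7, the median level at CpGs of 1 to 4 reads rises from 2.65% to 4.79% and flank reads from 2.97 to 3.24, while listed CpGs per 100 bp fall from 6.82 to 5.49 and promoter G+C from 68% to 62.7%, with wide overlap throughout.

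CpG density moved the other way. The low-coverage regions had a median of 6.82 listed CpGs per 100 bp (quartiles 5.66 to 8.23), the other regions 6.20 (4.93 to 7.68) and the band above 7 reads 5.49. The choice has a part in this, because a region of low mean reaches 30 CpGs of 5 or more reads only with many CpGs. When 4 reads were enough for a CpG to count, the medians were 5.72 and 5.74. The densest low-coverage region was chr12:114166612-114168040, with 14.2 listed CpGs per 100 bp and 4.08 reads. Next were the region of Arhgap32, a GTPase-activating protein (chr9:31839475-31840671), with 13.95 and 4.26 reads, and chr14:58143734-58144747 with 13.2 and 4.01 reads. The last of these holds 8 CpGs above 19 reads, which count in its density but not in its mean. With them counted in the mean, it would not stay at 4.3 reads or less. The sparsest were chr7:31241315-31243478 with 2.77, chr12:50491482-50494192 with 2.84 and the region of Gcnt2 and Gm31683 (chr13:41011712-41014446) with 2.89. Densities thus spanned a wide range at nearly equal coverage.

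The reference sequences also count CpGs without reads, but the promoters compared lie in regions whose choice favours dense CpGs at low coverage. Among 695 promoters matched to low-coverage regions the median G+C content was 68% (quartiles 62.7 to 73.3), against 65.7% (60 to 71) in the 5327 promoters of the other regions and 62.7% in the band above 7 reads. The ratio of observed to expected CpGs had medians of 0.871, 0.852 and 0.819, and the 300 bases held 29, 26 and 23 CpGs. With regions called from 4 reads the G+C medians were 65.7% and 65.0%, so the difference was smaller there. CpGs of the sequence without any read made up 4.67% (972 of 20836) at low-coverage regions, 2.89% at the others and 1.30% in the band above 7. A promoter was matched only with at least 80% of its CpGs listed. Promoters with more unread CpGs are therefore missing from these shares and from the reads per CpG that follow. With these CpGs counted as 0, the median was 3.48 reads per CpG at the low-coverage promoters (quartiles 2.86 to 4.16) and 4.97 at the others. The part of base composition in the low coverage was not tested.

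Motifs were counted by their letters on both strands of the 300 bases, and a match is no proof of a site. GGGCGG, the core of the GC box read by Sp1, stood in 80% of the low-coverage promoters, 75.1% of all matched promoters, 64.9% of those above 7 reads and 35.7% of all 32851 promoters of the table. TGACGTC, the core of the cAMP response element bound by CREB, stood in 2.88% of the low-coverage promoters (20 of 695), in 4.58%, 7.44%, 6.95% and 6.07% of the 4 bands of rising coverage and in 3.21% of the table. With regions called from 4 reads it stood in 4.71% of low-coverage and 6.55% of other promoters, so the gap narrowed and kept its direction. Under the same setting GGGCGG stood in 75.6% of low-coverage and 73.6% of other promoters, and CCAAT in 35.8% and 33.1%, which turned the order of the latter. Shares of the other 4 were closer to all matched promoters. With 5 reads CCAAT, the box bound by NF-Y, stood in 31.4% against 33.2%, CCGGAAG, of the ETS type, in 16.4% against 18.1%, GCATGCG, the centre of the NRF1 site, in 8.06% against 6.53%, and AAGATGG, read by YY1, in 5.18% against 6.39%. In the table they stood in 37.4%, 8.86%, 3.58% and 6.34%. Apart from the NF-Y and YY1 letters each of these holds a CpG, they may overlap one another, and promoters of 1 gene share sequence.

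Around the transcription start reads rose downstream in the low-coverage regions as in the others, at a lower level. In the 322 regions with exactly 1 matched promoter, mean reads per listed CpG were 3.48 at 200 to 150 bp upstream, 3.63 in the last 50 bp before the start and 4.40 at 150 to 200 bp downstream. The band above 7 reads (263 regions) had 6.69, 7.34 and 9.01 in the same bins. Reads at 50 to 200 bp downstream divided by those at 50 to 200 bp upstream had a median of 1.18 (quartiles 0.803 to 1.70), the lowest of the 5 bands beside 1.33, 1.24, 1.19 and 1.25 in order of rising coverage, and were higher downstream in 192 of 302 regions (63.6%). The other bands had higher reads downstream in 61.3% to 67.1% of regions, a range that takes in the share of the low-coverage regions. Methylation was low around the start, 1.68% in the last 50 bp before it and 1.45% at 100 to 150 bp downstream, the lowest bin, and rose to 19% at 1000 to 950 bp upstream and 10.7% at 950 to 1000 bp downstream. In the band above 7 reads it was 26.3% and 9.75% at those distances, so the upstream side differed more than the downstream side.

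**Figure D4:**
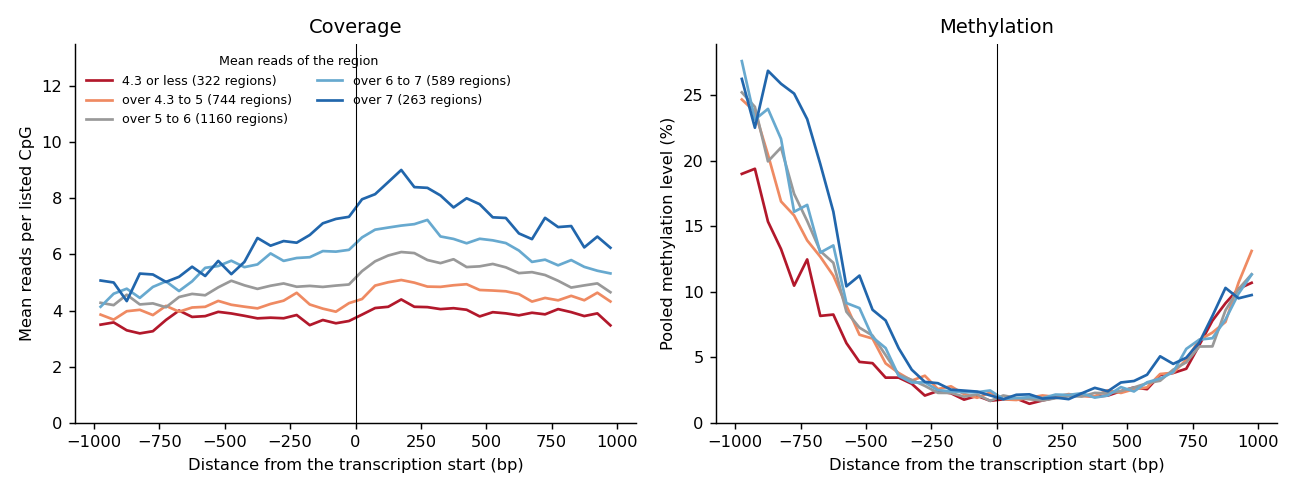
Mean reads per listed CpG (left) and pooled methylation level in percent (right) in 50-bp bins by distance from the transcription start, for regions with 1 matched promoter in 5 bands of mean reads. The lowest band peaks at 4.40 reads and the highest at 9.01, both at 150 to 200 bp downstream, and methylation is lowest around the start in every band.

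Reads of neighbouring CpGs inside a region were compared by distance, as a description, since pairs covered by the same read share it. In the low-coverage regions the correlation of deviations from the region's mean was 0.782 at 1 to 20 bp (165096 pairs), reached -0.0031 at 41 to 60 bp, came back to 0.0536 at 81 to 100 bp and was -0.104 at 201 to 220 bp. In the band above 7 reads the values were 0.819, 0.0525, 0.135 and -0.118. The rise from 41 to 60 bp to 81 to 100 bp was 0.0567 in the low-coverage regions and 0.0577, 0.0754, 0.102 and 0.0829 in the 4 bands of rising coverage. Over the 19 autosomes taken singly the rise in low-coverage regions had an SD of 0.0538 and was above 0 on 14. The difference between the bands was not tested. With bins of 10 bp, which start at the same distances and are narrower, the rise in low-coverage regions was 0.0227.

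**Figure D5:**
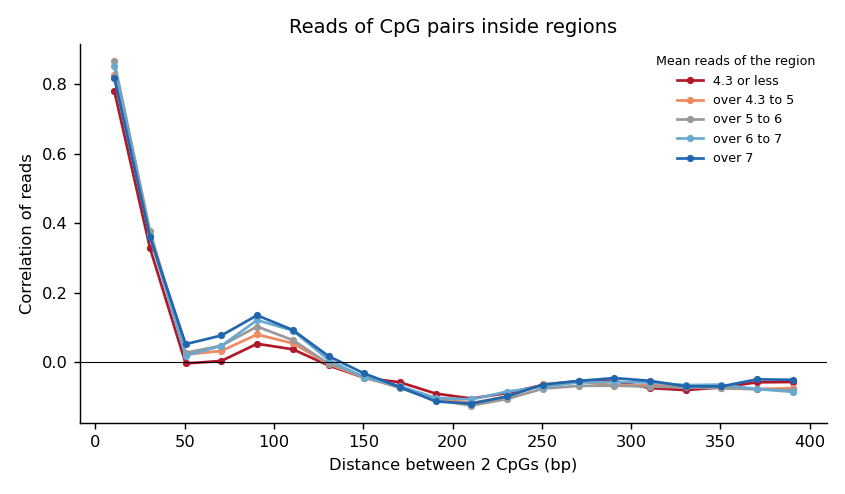
Correlation of reads between pairs of CpGs of a region (y axis) by their distance in bp (x axis, bins of 20 bp), as deviations from the region's mean, in 5 bands of mean reads. All bands fall to near 0 at 41 to 60 bp and rise again at 81 to 100 bp, to 0.0536 in the lowest band and 0.135 in the highest.

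The matched promoters gave 594 genes, of which 509 were protein coding and 85 (14.3%) were long noncoding RNA genes, against 12.4% long noncoding in the other regions. Among matched low-coverage regions 109 held genes on both strands (22.6%, against 20.4% in the others). Of all 5259 matched genes 594 (11.3%) lay at low-coverage regions, and the gene groups are read beside that share. Groups were chosen by symbol, and genes near the limit of 4.3 reads fall on either side of it by small differences.

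Genes for ubiquitin ligases and proteases had 13 of 69 in low-coverage regions (18.8%). Usp37, a deubiquitinase that acts in the cell cycle, had a region mean of 3.52 reads (SD over CpGs 2.01, chr1:74551776-74553780), and Usp30, the deubiquitinase of the outer mitochondrial membrane, 3.77 (SD 2.64). Rnf44 had 3.67 (SD 1.75), and Rnf2, the Polycomb ligase that ubiquitinates histone H2A, 3.84 (SD 2.50). Both E2 enzymes for NEDD8, the ubiquitin-like modifier, were among them, Ube2f with 3.76 reads (SD 1.68) and Ube2m with 3.83 (SD 2.69). Fbxo2 and Fbxo44, F-box proteins that recognise substrates, start on opposite strands of 1 region (chr4:147533498-147535950) with 3.8 reads (SD 2.16).

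Zinc-finger genes had 11 of 77 (14.3%). The lowest were Zfp316 with 3.44 reads (SD 1.84) and Zfp740 with 3.47 (SD 2.34), followed by Zfp143, an activator of many housekeeping promoters, with 3.69 (SD 2.76), Zfp687 with 3.72 (SD 2.97) and Zfp592 with 3.85 (SD 2.46). The Zfp740 promoter was among the richest in G+C of those named, with 85.3% and 54 CpGs in 300 bases, of which 51 were listed. Signalling genes of the Rab and MAP kinase families had 6 of 35 (17.1%), led by the mixed-lineage kinases Map3k11 with 3.42 reads (SD 2.26) and Map3k12 with 3.62 (SD 1.98). The Map3k11 promoter, by contrast, had a G+C content of 52%. At the promoters themselves, reads per CpG of the sequence were 2.33 at Zfp740 and 4.13 at Map3k11, against a median of 3.48 at low-coverage promoters. Low-coverage regions thus held promoters of very different base composition.

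Ribosomal proteins had 6 of 46 (13.04%) and splicing factors 5 of 40 (12.5%). The latter were Hnrnph1 with 3.75 reads (SD 2.36), Hnrnpr with 3.81 (SD 2.67), Prpf19, a ligase of the spliceosome, with 3.81 (SD 1.60), Hnrnpu with 4.01 and Hnrnpdl with 4.19. Proteasome subunits had 1 of 11 (9.09%), Psma7 of the core particle with 3.72 reads (SD 2.28) over 206 CpGs. Respiratory chain genes had 2 of 28 (7.14%), Atp5g2, a ring subunit of ATP synthase, with 3.59 (SD 1.86) and the assembly factor Cox20 with 4.14. DNA repair genes had 3 of 15 (20%), Xrcc3 of homologous recombination with 3.904 (SD 2.04), Ercc6 of transcription-coupled repair with 4.05 and the mismatch repair gene Msh3 with 4.27.

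Solute carriers had 5 of 77 (6.49%). These included the mitochondrial iron carrier Slc25a28 with 3.57 reads (SD 2.60), Slc10a7 with 3.67 (SD 2.32) and the zinc transporter Slc39a7 with 3.72 (SD 2.06). The mean at Slc25a28 rests on 143 of its 148 listed CpGs, since those above 19 reads are left out. Developmental transcription factors had 5 of 46 (10.9%): Pou2f1 with 3.93 reads, Gata2, a regulator of blood progenitors, with 4, Foxd4 with 4.07, Sox6 with 4.13 and Foxj3 with 4.16. Developmental signals such as Wnt, Bmp and Fgf genes had 0 of 24, and the median of their regions was 5.97 reads, against 5.35 over all matched genes. Counts of this size in 1 library were not tested, and none of these groups is called apart from the rest.

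By chromosome, low-coverage regions were 16.0% of the regions of chromosome 11 (92 of 574) and 7.44% of those of chromosome 6 (25 of 336), with the other autosomes between. The median of all regions was 5.26 reads on chromosome 11 and 5.49 on chromosome 6. The nearest other CpG-rich region of any length had 4.3 reads or less in 98 of 771 cases (12.7%), beside 9.67% of all such regions and 9.12% of the neighbours of the other regions. Its median was 5.40 reads, so a typical low-coverage region had a neighbour of ordinary coverage.

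Where the nearest CpG-rich region of any length lay within 50 kb, it had 4.3 reads or less in 54 of 409 cases (13.2%) at low-coverage regions. At the other regions it did so in 283 of 3095 cases (9.14%), and the difference was not tested. Low-coverage regions within 50 kb of each other formed 38 pairs. In the closest, 5606 bp apart on chromosome 11, the region of Mnt, a MAX-binding repressor (chr11:74644031-74645545), had 4.21 reads and its neighbour (chr11:74651151-74652483) 4.15. A pair 5954 bp apart joined the region of Hoxb3os, an antisense transcript of the Hoxb cluster (chr11:96213448-96216011, 4.22 reads), to chr11:96205739-96207494 with 3.99 reads, the one with 26.1% methylation named above. The regions of P4hb, a protein disulphide isomerase, and Arhgdia lay 6527 bp apart with 4.27 and 4.297 reads. The next pairs were chr8:111219366-111220885 and chr8:111227548-111229185, 6663 bp apart with 4.20 and 3.96 reads, and chr19:5447473-5448841 and chr19:5456369-5457504, 7528 bp apart with 4.14 and 4.28.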

How the data were processed

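Methylation was measured in 1 bisulfite library of MNase-resistant sperm DNA. Per the file headers, the authors deposited for each CpG 2 raw counts, its total reads and its methylated reads. Bowtie and mm9 are named in the submitters' processing notes. How reads were aligned, how duplicates were treated and how complete conversion was is not given in the sources used here. The table does not say whether positions count from 0 or 1, so printed mm9 positions may be shifted by 1 bp.

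Regions were called and measured with Python 3.11.15, numpy 2.4.6, pandas 2.3.3, scipy 1.17.1 and matplotlib 3.10.9, and the steps were tested on simulated data. The members and lists were chosen with earlier results of these data known. A methylation level is methylated over all reads in percent. Wilson intervals at 95% cover counting error only, and PCR copies could not be told from separate molecules. The intervals take reads at neighbouring CpGs as separate, although 1 molecule can cover several CpGs. CpGs above 19 reads were left out of means. Flank, window and correlation values are described where used.

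RefSeq promoters (GRCm38.p6; 250 bases before to 50 after the start) were placed where the spacing of at least 8 listed CpGs fitted the sequence exactly, at least 80% of its CpGs were listed and the place was the only one. Of 32851 promoters 15982 could be searched and 6022 were placed, none at several places. All 6022 lay on the chromosome RefSeq gives, which was not used for placing, and 61 others were placed outside a region. No coordinate was converted between builds. No promoter was placed in 289 low-coverage regions, which carry no gene name.

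Regions named are the 8 of lowest mean, the 3 on each side of the limit, the 3 at each extreme of density, of level and of flank reads, and the 5 closest pairs. Genes named are the 30 of lowest mean among genes of these regions and of the gene groups; other names identify a region, a printed sequence or a group of few genes and were chosen after their values were seen. Alternatives were other read minimums, levels, gaps, limits of mean and of reads, flanks and distances.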

Additional observations from a re-analysis of the deposited data

How the results depend on the processing

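No paired analysis was possible because there is 1 library and the result comes from no test. The number of low-coverage regions depends on the settings: instead of 771 it was 1968 with a minimum of 4 reads, 176 with 6 reads, 318 with gaps of at most 300 bp, 333 with a mean of at most 4.0 and 1388 with a mean of at most 4.6; the last 2 follow from the limit itself. Of the 771 regions, 714 overlapped low-coverage regions at 4 reads, 151 at 6 reads and 296 at the shorter gap. The other 54 of 59 alternative values moved by less than 1 SD between regions or, for counts, by less than 1.5 times. The rise of the correlation of reads was set against the SD over autosomes. That rise fell from 0.0567 to 0.0227 with bins of 10 bp. The SD between regions is that of single regions, and the differences in medians from the other regions are themselves under 1 SD. A move under 1 SD can therefore hide the loss or turn of a difference, so it does not show that a difference held. The direction against the other regions was kept in 43 of 48 comparisons. It turned for listed CpGs per 100 bp with 4 reads (5.72 against 5.74), for the level with CpGs of 1 or 2 reads (2.63% against 2.56%) and for reads over the surroundings with means of at most 4.0 (3.129 against 3.131) and 4.6 (3.129 against 3.131) and within 100 kb (3.11 against 3.12). The cause was not tested. Flank reads and flank methylation kept their direction in 10 of 10 alternatives each. Promoter G+C, whose alternatives were chosen after seeing the data, was 65.7% with 4 reads and 68.3% with at least 12 listed CpGs. A mean near 4 reads leaves the level of a single CpG too coarse to read, and CpGs without reads are seen only at matched promoters.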
